A study of Mus musculus with 7 samples.

Results

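The genes described here encode 10 proteins of the extracellular matrix of the brain and its cell surface partners. They are Vcan, Bcan, Ncan and Acan (the lecticans), Hapln1 (a link protein), Tnc and Tnr (tenascins), Ptprz1 and Cspg5 (membrane-spanning chondroitin sulfate proteoglycans) and Cd44 (a hyaluronan receptor). They were taken by gene symbol from a table of 24346 genes, and all 10 were in it. The table holds 7 RNA-seq libraries of primary neurospheres, each grown from the hippocampus of 1 mouse of the strain C57/BL6. Neurospheres are floating clusters of cells that grow from neural stem cells (NSCs) in medium with FGF and EGF. In 3 libraries the mouse was a Med23 CKO, which the methods describe as Nestin-CreER:Med23 flox/flox (mice KO_117, KO_214 and KO_218). In 4 libraries it was a littermate control (mice WT_215, WT_116, WT_213 and WT_220), labelled wild type, where the methods name Med23 flox/+ and Med23 flox/flox mice as controls. All 4 deposited control libraries were used, which is 1 more than the methods name for the RNA-seq comparison. The values of a gene are given for the controls in the order WT_215, WT_116, WT_213, WT_220 and for Med23 CKO in the order KO_117, KO_214, KO_218. Mice of both groups received tamoxifen at 200 mg/kg by mouth daily for 5 days, which activates the CreER recombinase, and cultures were made from mice labelled 2 months old. The labels place tamoxifen at 2 months of age with 3 to 4 weeks of recovery, whereas the methods give an earlier age for mice used for culture. Nestin-CreER acts in cells that express Nestin, such as NSCs and the cells they give rise to, so that other cells of a culture, such as microglia, can keep Med23. The paper states that Cre driven by Nestin is found in endothelial cells too.

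The matrix of the brain is poor in fibrillar collagen and is built on hyaluronan, a long sugar chain. Lecticans bind hyaluronan with one end and tenascins with the other, link proteins lock the lectican onto the hyaluronan, and chondroitin sulfate chains on the lectican core attract water and growth factors. Tenascin-C and several of these proteoglycans are known from the stem cell niches of the embryonic and adult brain, whereas aggrecan and Hapln1 are best known from the perineuronal nets around mature neurons.

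Levels are given as FPKM, fragments scaled to transcript length and library size, so that genes can be compared per length. Differences between genotypes are Med23 CKO minus control in mean log2(FPKM + 1), from limma over the 14151 genes whose FPKM averaged 0.5 or more, and understate the change of low genes. Of the 10 genes, 8 passed this filter and Acan and Hapln1 did not. Read counts were not used here, so the depth of each library is unknown, and the number of mice limits the precision. Between 16841 and 18113 genes had a value above 0 in a library, and no 2 libraries held the same values. Med23 itself had 11.4, 10.3, 12.9 and 10.1 FPKM in the controls, and 9.97, 9.27 and 8.12 FPKM in Med23 CKO. The groups did not overlap, with Med23 CKO the lower by a log2 difference of -0.26 (standard error 0.18, two-sided exact permutation p = 0.0571). These values take in all exons of Med23, also those that Cre leaves in place.

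The libraries differed in their levels of cell type markers, and this cut across genotype. Sox2, a transcription factor of NSCs, had between 93.1 and 191 FPKM in control and between 69.4 and 194 FPKM in Med23 CKO, and Nes (nestin) was above 60 FPKM in each library (lowest 61.1 FPKM in KO_214), so the markers of the labelled cell type were present throughout. Summed over 8 proliferation genes, FPKM was 825, 336, 475 and 819 in the controls, and 1074, 223 and 585 in Med23 CKO. The sum over 14 microglia and macrophage genes ran from 46.8 to 292 in control and from 46.1 to 1312 in Med23 CKO, where KO_214 was highest. The sum over 8 mural and fibroblast genes ran from 43.9 to 94.1 in control and from 53.2 to 333 in Med23 CKO, again with KO_214 highest, and the sum over 8 endothelial genes ran from 9.93 to 62.0 and from 7.89 to 112. No gene of these marker lists was at 0 in any library. None passed an unadjusted p under 0.05 between genotypes, but several lists lay to one side. The mean log2 level was higher under Med23 CKO for 13 of 13 microglia and macrophage genes tested (median difference 0.86), 8 of 8 endothelial genes (0.55) and 7 of 8 mural and fibroblast genes (0.64). Only in KO_214 were the sums of these lists above the control range, and those of KO_117 and KO_218 were not. The mean log2 level was lower for 8 of 8 proliferation genes (-0.45) and 8 of 8 genes of NSCs and radial glia (-0.37). Of all genes tested, 56.2% were lower. Among the proliferation genes, Pcna (-0.0003) and Bub1 (-0.016) were close to no difference. Only KO_214 had sums of both lists below the control range (223 for proliferation, 1734 for NSCs and radial glia). In KO_117 these sums were 1074 and 3828, against control maxima of 825 and 3833. In mean FPKM, however, Mki67, Top2a, Ccnb1, Pcna and Bub1 of the proliferation genes were higher in Med23 CKO, and Cdk1, Mcm2 and Birc5 lower. In bulk RNA, fewer cells of a type and less RNA per cell cannot be told apart.

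The abundant matrix genes of these cultures were Tnc, Ptprz1, Ncan, Bcan and Cspg5, and Acan and Hapln1 were under 0.4 FPKM in every library. By control mean, Tnc was 248th of the 24346 genes, Ptprz1 478th, Ncan 516th, Bcan 520th and Cspg5 1068th, whereas Hapln1 was 15341st and Acan 15924th. Cd44, Vcan and Tnr followed in that order, with control means of 22.3 ± 12.7, 20.1 ± 5.16 and 12 ± 8.90 FPKM (SD, n = 4). In the order of the 10 genes, neighbours overlapped in their control ranges except Tnr and Hapln1, which were separated. Ncan and Bcan could not be ordered, since each was the higher in 2 of the 4 controls, and Vcan and Cd44 likewise. Bcan was above Cspg5 in 7 of the 7 libraries, Vcan above Tnr in 7, and Tnc above Ptprz1 in 4 of the 4 controls but in 5 of all 7 libraries.

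**Figure D1:**
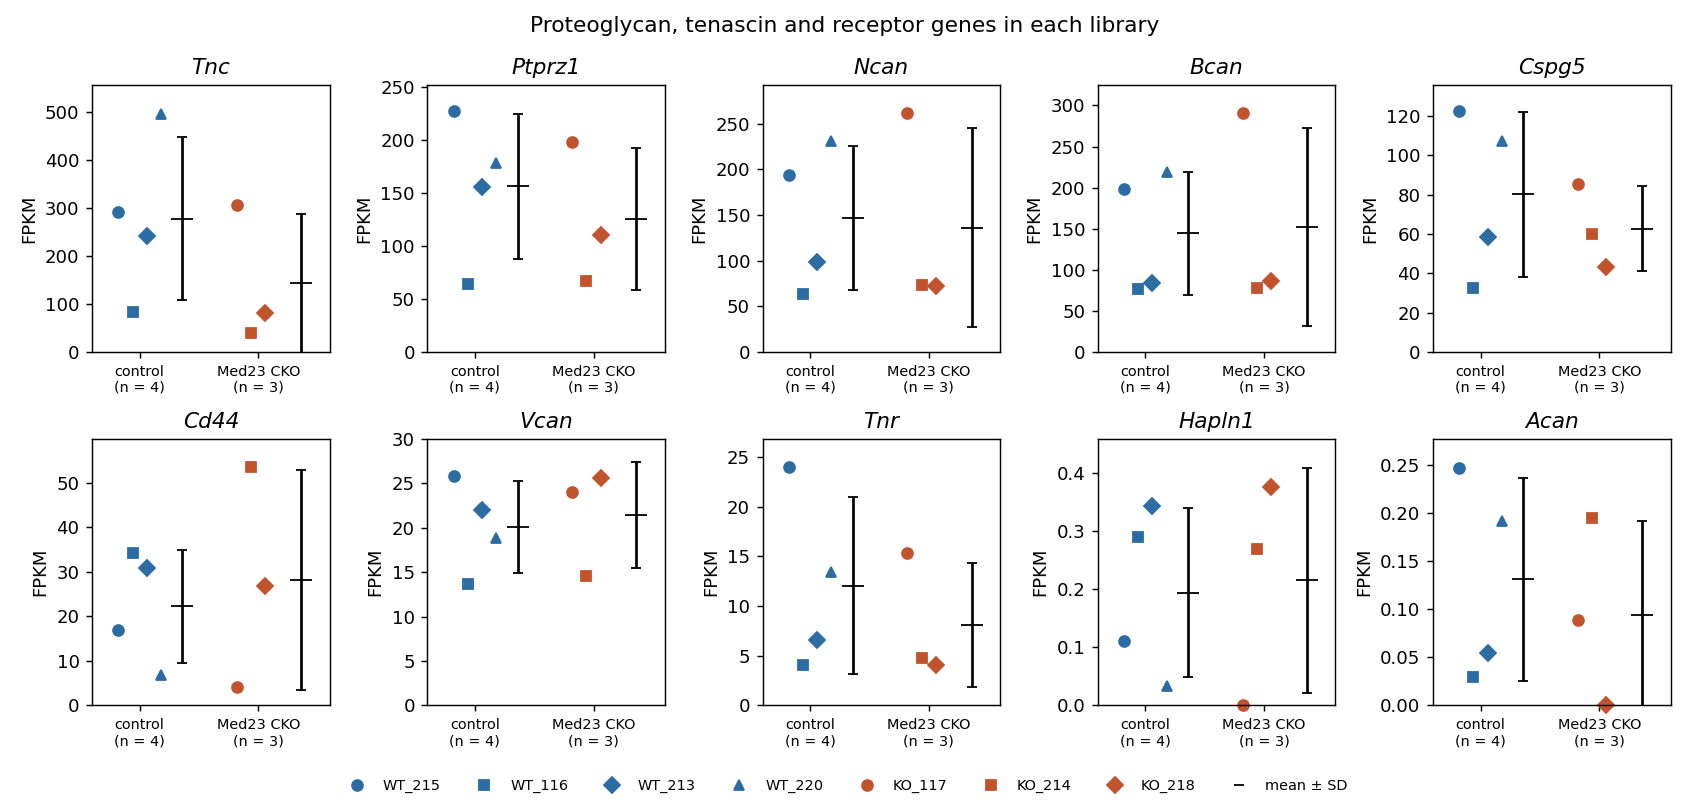
FPKM (vertical axis, linear, from 0) of the 10 genes in each of the 4 control and 3 Med23 CKO libraries, ordered by control mean, with a bar for the mean and SD of each group, ending at 0 where the SD exceeds the mean. Points are libraries, and for every gene the groups overlap: KO_117 lies with WT_215 and WT_220 at the top of the panels of Tnc, Ptprz1, Ncan, Bcan, Cspg5 and Tnr, and at the bottom of that of Cd44.

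For none of the 10 genes was the difference between Med23 CKO and control larger than the spread between mice. Of the 8 tested, 7 had a lower mean log2(FPKM + 1) in Med23 CKO, as did 56.2% of all genes tested, and only Tnc and Tnr kept their direction under every alternative run. On the FPKM scale itself, the Med23 CKO mean of Bcan (152 against 145 FPKM) and of Cd44 (28.1 against 22.3 FPKM) was the higher. At an unadjusted p under 0.05 from limma, 0 of the 8 were higher, where 0.502% of all genes tested were, and 0 were lower, where 0.996% were. At an adjusted p under 0.05 there were 0 among the 8 and 0.0% of all genes. In either direction 0 of the 8 were called, against 1.5% of all genes. The groups overlapped for all 10. Over all genes tested, all Med23 CKO values were above all control values for 0.784% and below them for 1.53%, together 2.32%. The median difference of the 8 genes was -0.22, and that of all 14151 genes was -0.03. Exact permutation tests gave p between 0.286 (Tnc) and 0.971 (Bcan), where 3 mice against 4 can go as low as 0.0286. The spread itself was large for most of these genes: the residual SD within genotype was 1.35 for Cd44 and 1.26 for Tnc on the log2 scale, above that of 97.0% and 96.1% of the genes tested, whereas Vcan, with 0.39, was close to the median of 0.38.

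**Figure D2:**
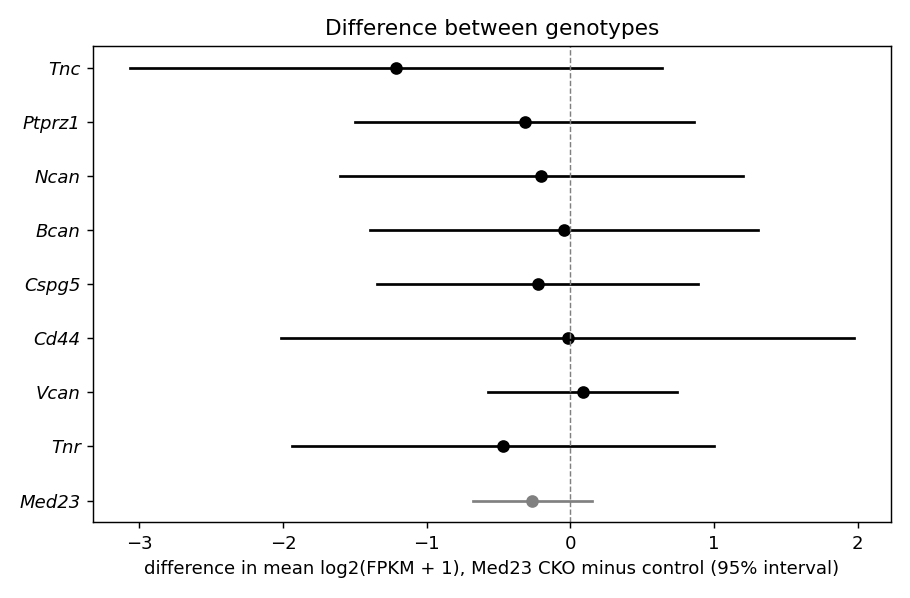
Difference in mean log2(FPKM + 1) between 3 Med23 CKO and 4 control libraries (horizontal axis, points) with its 95% interval from limma (lines) for the 8 genes tested and, in grey, Med23. Every interval spans 0, and the interval of Vcan, from -0.57 to 0.74, is the narrowest of the 8.

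Tenascin-C (Tnc, ENSMUSG00000028364) is a large hexameric glycoprotein that modulates adhesion and growth factor signaling in germinal zones. It lies on chromosome 4 of GRCm38 from 63959785 to 64047015 on the reverse strand. Tnc had 291, 84.0, 241 and 495 FPKM in the controls, and 307, 38.9 and 81.9 FPKM in Med23 CKO. The lowest of the 7 values were in KO_214 and KO_218, but KO_117 was above 3 of the 4 controls, so the groups overlapped. The control mean was 278 ± 170 FPKM (SD, n = 4) against 143 ± 144 FPKM (SD, n = 3) for Med23 CKO, and the difference was -1.22 (95% interval -3.07 to 0.64, limma unadjusted p = 0.167, exact permutation p = 0.286). This was the largest difference of the 8 genes, and single mice set its size: it was -2.02 without KO_117 (limma unadjusted p = 0.0191) and -0.55 without KO_214. The annotation places a noncoding transcript on the opposite strand over part of its exons, and the kit named in the methods was not stated to keep the strand, so that their reads cannot be told apart.

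Tenascin-R (Tnr), the tenascin of oligodendrocyte lineage cells and perineuronal nets, was much less abundant. It had 24.0, 4.05, 6.62 and 13.4 FPKM in the controls, and 15.3, 4.81 and 4.12 FPKM in Med23 CKO. One control, WT_215, was highest and another, WT_116, lowest, and the Med23 CKO values lay between them. The difference was -0.47 (95% interval -1.93 to 1.0, exact permutation p = 0.571). A transcript on the opposite strand is annotated over exons of Tnr as well.

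Among the lecticans, neurocan (Ncan, chromosome 8, 70093085 to 70120873) and brevican (Bcan, chromosome 3, 87987531 to 88000230) are specific to the nervous system. Ncan had 193, 63.6, 98.1 and 231 FPKM in the controls, and 262, 73.8 and 72.6 FPKM in Med23 CKO. Bcan had 199, 76.5, 84.0 and 219 FPKM in the controls and 291, 77.9 and 86.5 FPKM in Med23 CKO. For both genes KO_117 was the highest library and WT_116 the lowest, so that the extremes of the 7 values were 1 mouse of each genotype. The differences were -0.20 (95% interval -1.61 to 1.20) for Ncan and -0.05 (95% interval -1.40 to 1.30) for Bcan, with exact permutation p of 0.83 and 0.971. These intervals hold a fold change of 2 in either direction.

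Versican (Vcan, chromosome 13, 89655312 to 89742509), the lectican of migratory paths and oligodendrocyte precursors, was the steadiest of the 8 genes. It had 25.8, 13.7, 22.0 and 18.8 FPKM in the controls, and 24.0, 14.6 and 25.6 FPKM in Med23 CKO. Its highest value was 1.89 times its lowest, against 3.80 times for Bcan, 4.12 times for Ncan and 12.7 times for Tnc. The difference between genotypes was 0.08 (95% interval -0.57 to 0.74, exact permutation p = 0.8). Isoforms of versican differ in their chondroitin sulfate attachment regions, and while the annotation gives Vcan 8 protein-coding transcripts, the table holds 1 value for the gene.

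Aggrecan (Acan), the lectican of cartilage and perineuronal nets, had 0.247, 0.0300, 0.0549 and 0.192 FPKM in the controls, and 0.0885 and 0.195 FPKM in KO_117 and KO_214, and was listed at 0 in KO_218. Hapln1, the link protein that holds lecticans on hyaluronan, had 0.111, 0.290, 0.343 and 0.0344 FPKM in the controls, was listed at 0 in KO_117, and had 0.270 and 0.376 FPKM in KO_214 and KO_218. Both stayed under the filter and were not tested with the other genes. Their exact permutation p, without a filter, were 0.714 and 0.914.

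Ptprz1 (chromosome 6, 22875502 to 23052916) is a receptor tyrosine phosphatase whose extracellular part is a chondroitin sulfate proteoglycan and binds tenascins, contactin and pleiotrophin. It had 227, 64.1, 156 and 179 FPKM in the controls, and 199, 67.1 and 110 FPKM in Med23 CKO. The difference was -0.32 (95% interval -1.5 to 0.86, exact permutation p = 0.571). Cspg5 (neuroglycan C), a membrane proteoglycan with an EGF-like module, had 122, 32.5, 58.6 and 107 FPKM in the controls and 85.5, 59.7 and 42.9 FPKM in Med23 CKO. All 3 Med23 CKO values of Cspg5 lay inside the control range, and the difference was -0.23 (95% interval -1.34 to 0.89, exact permutation p = 0.714).

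Cd44 (chromosome 2, 102811141 to 102901665), the main cell surface receptor for hyaluronan, is found on astrocyte-committed progenitors, reactive astrocytes, microglia and mesenchymal cells. It had 17.0, 34.3, 30.8 and 6.94 FPKM in the controls, and 4.10, 53.5 and 26.8 FPKM in Med23 CKO. The lowest and the highest of the 7 values were both in Med23 CKO, 13.1 times apart. The difference was -0.02 (95% interval -2.01 to 1.98, exact permutation p = 0.943), and it was 0.96 without KO_117 and -0.75 without KO_214. In KO_214 the sums of the astrocyte, microglia, mural and endothelial genes were the highest of the 7 as well. In KO_117 the sums of the astrocyte, microglia and endothelial genes were the lowest. The part of these cells in the levels of Cd44 was not tested.

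The spread between mice was ordered in much the same way for most of these genes. The 3 highest values were in WT_215, WT_220 and KO_117 for 6 of the 8 genes tested (Tnc, Tnr, Bcan, Ncan, Ptprz1 and Cspg5), and the 3 lowest were in these same libraries for 1, Cd44. For Vcan neither held. Over all 14151 genes, 26.1% had their 3 highest values in these libraries and 23.6% their 3 lowest. All 8 proliferation genes, 6 of 8 genes of NSCs and radial glia and the oligodendrocyte lineage factors Olig1 and Olig2 were highest in these 3. The microglia and macrophage genes (11 of 13 tested), 7 of 8 endothelial genes and 4 of 7 astrocyte genes (Gfap, Aqp4, S100b and Gja1) were lowest in them. Of the other astrocyte genes, Aldh1l1 had its 2 highest values in WT_220 and KO_117, and Aldoc and Slc1a2 had theirs in KO_214 and KO_218. These 3 libraries are no group of the study, and the part of cell makeup in the levels of the matrix genes was not tested.

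**Figure D3:**
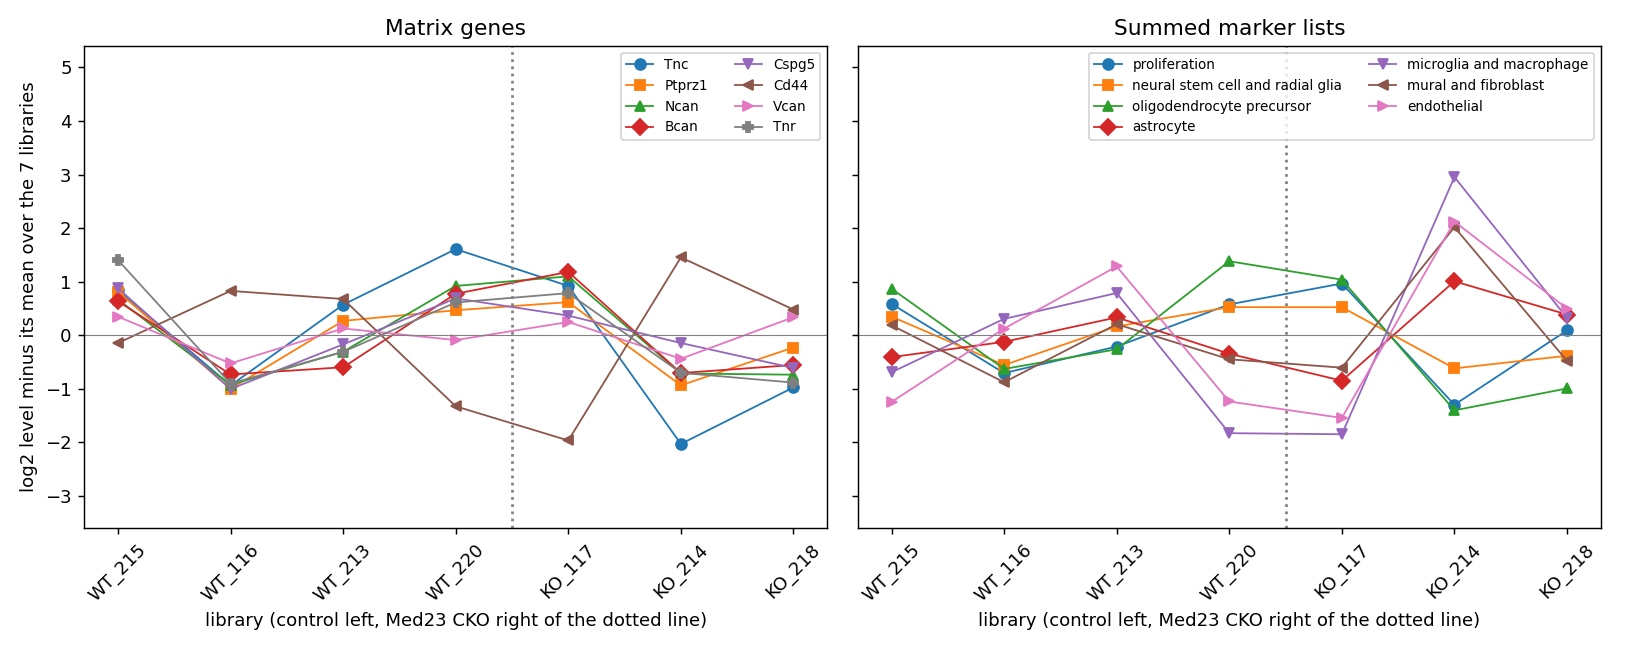
Log2 level minus its mean over the 7 libraries (vertical axis) in each library (horizontal axis, controls left of the dotted line) for the 8 genes tested (left) and for the summed FPKM of 7 lists of marker genes (right). Tnc, Tnr, Bcan, Ncan, Ptprz1 and Cspg5, like the proliferation, stem cell and oligodendrocyte precursor lists, are above 0 in WT_215, WT_220 and KO_117, Cd44 is below 0 there, and Vcan spans the narrowest range.

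Sequence ahead of the start of transcription is shown for Ncan and Tnc, which were high in the same libraries, and for Cd44, which was low there. The 250 bases before a RefSeq start are printed on the strand of the gene, from GRCm38, with matches to any of 5 motifs in capitals. The motifs were TGANTCA (AP-1), CAGCTG (an E-box), ACAATG (SOX factors), GTGGGAA (RBPJ, the Notch effector) and TATAAA, each searched on both strands.
Ncan, chr8:70120845-70121094, reverse strand: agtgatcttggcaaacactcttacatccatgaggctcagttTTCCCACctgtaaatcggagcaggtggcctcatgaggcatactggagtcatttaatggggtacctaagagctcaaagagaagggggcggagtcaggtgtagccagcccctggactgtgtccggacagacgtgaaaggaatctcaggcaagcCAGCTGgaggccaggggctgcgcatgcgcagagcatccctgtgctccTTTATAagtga
Tnc, chr4:64047016-64047265, reverse strand: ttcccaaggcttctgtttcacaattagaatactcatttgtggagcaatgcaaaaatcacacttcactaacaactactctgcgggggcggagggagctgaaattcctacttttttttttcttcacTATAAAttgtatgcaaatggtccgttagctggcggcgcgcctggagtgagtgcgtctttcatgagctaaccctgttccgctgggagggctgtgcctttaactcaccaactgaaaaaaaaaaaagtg
Cd44, chr2:102901666-102901915, reverse strand: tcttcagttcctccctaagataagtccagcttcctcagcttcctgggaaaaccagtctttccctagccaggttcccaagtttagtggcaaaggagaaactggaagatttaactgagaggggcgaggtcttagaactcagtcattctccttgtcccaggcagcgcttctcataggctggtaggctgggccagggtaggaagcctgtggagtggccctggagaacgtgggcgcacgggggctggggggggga
Counted back from -1 at the base before the start, the window of Ncan held the RBPJ letters at -209 to -203, the E-box at -58 to -53 and the TATA letters at -11 to -6, the first and the last as their reverse complements. That of Tnc held the TATA letters at -126 to -121, and that of Cd44 held none of the 5. No 2 of these matches overlapped. In the annotation that gives the gene coordinates, Ncan reaches to 70120873, so that the last bases of its window, with the TATA letters, lie inside the gene. Over all 32851 windows of this length, 13% held the E-box letters, 5.42% those of RBPJ, 12.4% TATAAA, 6.75% those of AP-1 and 10.7% those of SOX factors. Of the 10 genes, 9 were matched in the promoter table, in 10 windows, since Tnc has a further start. Of these 10 windows, 2 held the E-box (Acan and Ncan), 3 the RBPJ letters (Vcan, Ncan and the further start of Tnc), 3 TATAAA (Ncan and both starts of Tnc), and 0 those of AP-1 or SOX factors. The windows of the 2 starts of Tnc overlap, and their TATAAA is the same stretch of the genome. A match is a description of letters and not a site of binding.

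Within a library, the ratio of 2 genes sets aside what both share. Of the 28 ratios between the 8 genes tested, the steadiest was that of Ncan to Bcan, which was 0.972, 0.831, 1.17 and 1.05 in the controls, and 0.900, 0.948 and 0.839 in Med23 CKO. Its range over the 7 libraries was 1.40 times, although Bcan alone ranged over 3.80 times and Ncan over 4.12 times. At the other end, the ratio of Tnc to Cd44 ranged over 103 times. The ratio of Tnc to Ncan was 1.51, 1.32, 2.45 and 2.14 in the controls and 1.17, 0.527 and 1.13 in Med23 CKO. That of Tnc to Bcan was 1.46, 1.10, 2.86 and 2.26 in the controls and 1.06, 0.499 and 0.946 in Med23 CKO. For these 2 of the 28 ratios, every Med23 CKO value lay below every control value. Both hold Tnc, and Ncan and Bcan moved together, so they do not count as 2 separate results. The control mean of the ratio of Tnc to Ncan was 1.86 ± 0.531 (SD, n = 4) and the Med23 CKO mean 0.942 ± 0.361 (SD, n = 3), a log2 difference of -1.02 (exact permutation test, two-sided, p = 0.0571, Benjamini-Hochberg adjusted over the 28 ratios 0.8). Leaving out single libraries moved it between -1.22 and -0.64, and that of Tnc to Bcan, -1.18 with all libraries, between -1.42 and -0.85. The values nearest 0 were those without KO_214. The ratios were taken up after the levels were seen, and neither passed the adjustment.

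**Figure D4:**
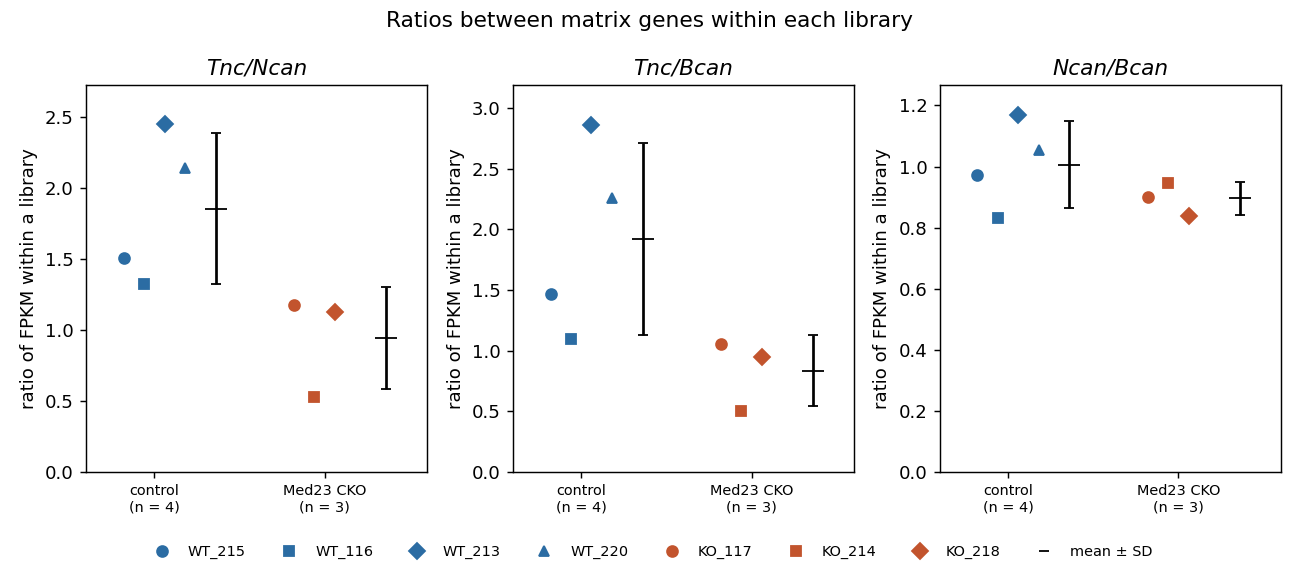
Ratio of FPKM within a library (vertical axis, linear, from 0) of Tnc to Ncan, Tnc to Bcan and Ncan to Bcan in the 4 control and 3 Med23 CKO libraries, with the mean and SD of each group. The Med23 CKO points of the first and second panel lie below all control points, from 0.527 to 1.17 and from 0.499 to 1.06, and those of the third lie inside the control range.

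Each lectican gene has a link protein gene as its neighbour in the genome. Hapln1 lies 43.7 kb from Vcan, Hapln2 lies 21.5 kb from Bcan, Hapln4 lies 2.22 kb from Ncan, and Hapln3 ends 2 bases from the end of Acan in the annotation, with 0 protein-coding genes between the members of each pair. Vcan was above Hapln1, Bcan above Hapln2 and Ncan above Hapln4 in 7 of the 7 libraries, whereas Acan was below Hapln3 in all 7. Hapln3 had between 1.29 and 4.30 FPKM in control and between 0.762 and 3.84 FPKM in Med23 CKO. Because Acan and Hapln3 meet end to end, fragments that run past either end could be counted for the other gene. Hapln2, the link protein of myelinated nodes, had 3.06, 5.63, 2.44 and 0.499 FPKM in the controls, and 0.213, 6.07 and 2.57 FPKM in Med23 CKO. Its 2 lowest values were in KO_117 and WT_220, where its neighbour Bcan had its 2 highest. Hapln4 had 6.16, 4.09, 3.13 and 7.18 FPKM in the controls and 4.97, 2.92 and 1.98 FPKM in Med23 CKO, and like Ncan was highest in WT_215, WT_220 and KO_117. None of Hapln2, Hapln3 and Hapln4 differed between genotypes at an unadjusted p under 0.05 (differences of -0.13, -0.38 and -0.53).

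The other genes that build, modify, cut and bind this matrix showed a similar picture. A set of 79 such genes in 11 lists was followed, of which 73 were tested, 42 with a higher and 31 with a lower mean log2 level in Med23 CKO and a median difference of 0.04. At an unadjusted p under 0.05 from limma, 1 was higher and 0 were lower, and at an adjusted p under 0.05 there were 0. The groups did not overlap for 2 of the 73, 2.74%, close to the 2.32% of all genes. The one past the unadjusted threshold was Itgb1, the integrin beta 1 subunit of many matrix receptors. It had 162, 129, 173 and 151 FPKM in the controls, and 222, 219 and 186 FPKM in Med23 CKO, so that all 3 Med23 CKO values were above all 4 control values. Its difference was 0.44 (95% interval 0.06 to 0.83, limma adjusted p = 1.0, exact permutation p = 0.0286, the smallest this design allows). Itgb1 lost its unadjusted call without any of 5 libraries (WT_215, WT_116, WT_220, KO_117 or KO_214), with differences between 0.36 and 0.47. The other gene tested with separate groups was Gpc6, a glypican that carries heparan sulfate, with 5.89, 3.12, 5.25 and 5.93 FPKM in the controls and 9.95, 6.29 and 7.39 FPKM in Med23 CKO. Its difference was 0.56 (95% interval -0.05 to 1.18, exact permutation p = 0.0286). Has1, of the hyaluronan list, stayed under the filter and was not tested, but its groups were separate as well. It had 0.178 to 0.429 FPKM in the controls and 0.447 to 0.655 FPKM in Med23 CKO (exact permutation p = 0.0571).

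By role, the 12 genes of chondroitin sulfate chain synthesis were all tested, with 8 higher, 4 lower, 0 called and a median difference of 0.05. Chpf, a chain polymerizing factor and the most abundant of them by the mean over all 7 libraries, had 36.4 ± 13.4 and 37.2 ± 13.8 FPKM in control and Med23 CKO (SD, n = 4 and 3). Xylt1, which starts the chain on the core protein, had 66.8, 13.4, 27.6 and 57.7 FPKM in the controls, and 55.3, 12.6 and 15.3 FPKM in Med23 CKO. It was high in the libraries where Ncan, Bcan and Ptprz1, whose proteins carry such chains, were high. Of 10 genes for sulfation and epimerization 9 were tested and 0 called (median difference 0.08), and the most abundant, the 6-O-sulfotransferase gene Chst7, ranged from 13.4 FPKM in WT_116 to 149 FPKM in KO_117. The 7 lectican-cleaving ADAMTS proteases were all tested with 0 called and 3 higher and 4 lower, and Adamts1 had 33.4 ± 5.89 and 36.9 ± 23.0 FPKM in control and Med23 CKO (SD, n = 4 and 3). Of 8 genes of hyaluronan synthesis and turnover 6 were tested with 0 called (median 0.04), and Hyal2, a hyaluronidase, had 24.2 ± 7.24 and 24.3 ± 9.01 FPKM. Of 5 other hyaluronan-binding genes 3 were tested with 0 called (median 0.21), and Tnfaip6 had 34.1 ± 3.33 and 48.0 ± 29.3 FPKM. Of the other tenascins, Tnxb was tested and not called (difference 0.40), and Tnn was not tested. Among 10 receptors for tenascins and chondroitin sulfate, 5 were higher and 5 lower (median 0.09), and Itgb1 was the one called. Among 7 further chondroitin sulfate proteoglycans 0 were called (median 0.08), and Bgn (biglycan) was highest in KO_214, at 227 FPKM against between 7.79 and 49.8 FPKM in the 6 other libraries. Among 12 heparan sulfate proteoglycans 10 had a higher and 2 a lower mean in Med23 CKO (median 0.15), with 0 called.

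Of the ligands, Ptn (pleiotrophin, which binds Ptprz1) had 329, 193, 229 and 393 FPKM in the controls, and 378, 95.9 and 250 FPKM in Med23 CKO. Receptor and ligand were both abundant, and Ptn was highest in the same 3 libraries as Ptprz1. Spp1 (osteopontin, which binds Cd44 and integrins) ran the other way, with 330, 922, 644 and 97.6 FPKM in the controls, and 69.9, 5420 and 733 FPKM in Med23 CKO. Like Cd44, it was highest in KO_214 and lowest in KO_117, the libraries with the highest and the lowest summed microglia genes. The part of these cells in its level was not tested. The differences were -0.40 for Ptn and 0.81 for Spp1, and neither was called. Mdk (midkine), the other ligand followed, was highest in WT_213 (52.0 FPKM) and lowest in KO_117 (25.8 FPKM), and was not called either. Of the 73 other matrix genes tested, 22 had their 3 highest values in WT_215, WT_220 and KO_117, and 15 their 3 lowest. Over all genes tested, these shares were 26.1% and 23.6%.

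Outside these genes, the gene whose log2(FPKM + 1) followed each of them most closely over the 7 libraries was found among 14143 tested. It was Adgrl1 for Ncan (Pearson r = 0.999, or 0.998 without the 2 libraries farthest from the median of Ncan), Amigo2 for Cd44 (0.998), Rbm22 for Bcan (0.997), Rfx5 for Tnc (0.994), Zfp69 for Cspg5 (0.992), Arhgap26 for Ptprz1 (0.991), Lypd1 for Tnr (0.989) and Ivns1abp for Vcan (0.982). Each is the highest of 14143 values over the same 7 libraries, which differ in their cell type markers, and is given as a description.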

How the data were processed

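Libraries were made by the study's authors from primary neurospheres, adapters were removed with cutadapt, and reads were aligned to mm10 with TopHat at default parameters. FPKM per gene was calculated by the authors with Cuffdiff, and the deposited table gives it for each of the 7 libraries. The table's group means, fold changes and test results were not used here, and its annotation is not given in the sources used here. Columns were matched to mice by the sample titles, with 0 columns of other samples.

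FPKM was analysed as log2(FPKM + 1) where the mean of a gene reached 0.5. Genotypes were compared with limma 3.58.1 in R 4.3.3 (lmFit, eBayes with trend, two-sided, Benjamini-Hochberg adjustment over all genes tested). Single genes and ratios were compared by exact permutation of the genotype over the 7 mice (35 arrangements) in Python 3.11.15. Cuffdiff, which needs the reads, was not repeated. The fit was tested on simulated data. Each library is 1 mouse. Whole fragments could not be recovered from low FPKM values, so the depth is unknown. Coordinates are those of GENCODE M21 and promoter sequences those of RefSeq, both on GRCm38 (mm10).

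The genes, lists and tests were chosen with earlier results of these data known. Named are the 10 genes, Med23, the link protein genes paired with lecticans, up to 3 genes of each list past an unadjusted p of 0.05 or with separate groups (otherwise the most abundant one), defining markers, and the gene most like each of the 8. One list of markers is not reported here. Xylt1, Ptn, Tnn and genes given for their library pattern were chosen after their values were seen. Alternatives were a pseudocount of 0.1, no filter, a minimum mean of 1, quantile normalization, median centring, limma without trend or with array weights, a covariate from the first digit of each mouse's number, the ratio of mean FPKM, and leaving out each library.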

Additional observations from a re-analysis of the deposited data

How the results depend on the processing

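None of the 8 genes tested crossed the unadjusted threshold under any alternative except Tnc, which was lower with array weights (-1.48, limma unadjusted p = 0.0202) and without KO_117, so that the count of the 8 genes called lower was 1 in these and between 0 and 1 with each library left out. Over all genes, the counts at an unadjusted p under 0.05 moved from 71 higher and 141 lower to 195 and 273 with no filter on low values, which tests more genes, and to 193 and 887 with array weights, an iterative fit that stopped before its tolerance was reached. The cause was not tested. With each library left out they ranged from 44 to 362 higher and from 71 to 410 lower (362 and 410 without KO_117, 139 and 71 without KO_218, 44 and 78 without WT_215, 45 and 201 without WT_116, 49 and 74 without WT_220), and between 0 and 1 gene passed the adjusted threshold (1 without KO_214 or without KO_218). Of the 73 other matrix genes tested, those called higher were 2 with median centring and 0 with array weights, and between 0 and 5 with a library left out. Those called lower were 3 with array weights and between 0 and 1 with a library left out. The difference of Cd44 changed sign with quantile normalization (0.059), median centring (0.0073), array weights (0.17) and a covariate from the first digit of each mouse's number (0.048), and the log2 ratio of mean FPKM was 0.34 for Cd44 and 0.069 for Bcan. Leaving out single libraries, the difference of Cd44 ranged from -0.75 to 0.96, that of Vcan from -0.079 to 0.33, Bcan from -0.65 to 0.29, Ncan from -0.81 to 0.11, Ptprz1 from -0.72 to 0.058 and Cspg5 from -0.59 to 0.032, so that the direction of these 6 depends on single libraries. Tnc (-2.02 to -0.55) and Tnr (-0.99 to -0.07) kept theirs under every alternative run. With 3 mice against 4, the 95% intervals of the 8 genes except Vcan include a difference of 1 on the log2 scale in at least 1 direction. No paired analysis was possible because the labels do not give the litter of each mouse.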
